A study of Mus musculus with 9 samples.

Results

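Potassium channel genes were followed across 9 mouse hearts in which messenger RNA had been sequenced. The set was defined by name, as all genes whose symbol begins with Kcn, then letters and a digit, leaving out symbols that end in ot1 or os. It held 95 of the 43154 listed genes, of which 93 encode channel subunits or their partners in 20 subfamilies and 2 (Kcnmb4os1 and Kcnmb4os2) are antisense RNAs whose names end in a digit. At least 1 FPKM (fragments scaled to transcript length and to library size) in at least 2 hearts was reached by 31 of the 95, in 15 subfamilies, and by 18 of them in all 9 hearts. The other 64 stayed below that level, 4 of them at 0 in every heart.

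The hearts came from C57BL/6 mice in 3 groups, each aged 125 or 158 days at collection. Calcineurin transgenic mice given JIB-04, an inhibitor of Jumonji histone demethylases, gave 2 hearts (replicate 1 at day 125 and replicate 2 at day 158). Calcineurin transgenic mice given vehicle gave 3 hearts (replicate 1 at day 125, replicates 2 and 3 at day 158). Wild type mice given vehicle gave 4 hearts (replicates 1 and 2 at day 125, replicates 3 and 4 at day 158). Dosing began at 4 weeks of age, with JIB-04 at 50 mg/kg in 3 doses a week. The transgene carries calcineurin A under a myosin heavy chain promoter, which in this mouse line is active in cardiomyocytes, and wild type hearts with JIB-04 were not analysed here.

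Potassium channels carry the outward currents that repolarize the heart after each beat and hold its resting potential. Voltage-gated channels (Kv) open during the action potential and set its duration, inward rectifiers (Kir) stabilize the resting potential or answer to acetylcholine and to ATP, and two-pore, calcium-activated and sodium-activated channels add background or triggered currents. In the mouse ventricle repolarization is fast and leans on the transient outward and slow Kv currents, and loss of these currents is a familiar feature of hypertrophied hearts.

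The transgene was visible in its own gene. Ppp3ca, which encodes calcineurin Aα, was at 1536 and 1434 FPKM in JIB-04 hearts and at 1762, 1706 and 199 FPKM in transgenic vehicle hearts 1 to 3, against 22.9 to 24.8 FPKM in wild type hearts. Transgenic vehicle heart 3 stood apart from the other 4 transgenic hearts in this gene. It did so too in Myh6, the α-myosin heavy chain (705 FPKM, against 1755 to 2220 FPKM in the others), in Acta2 (104 against 420.1 to 534 FPKM) and in the collagen genes Col3a1 (14.1 against 90.1 to 120.3 FPKM) and Col1a1 (9.67 against 38.0 to 48.4 FPKM). Without it 5 members were higher and 14 lower in the comparison with wild type, where 6 and 16 were with it. Cardiomyocyte markers, the defining genes of the labelled tissue, summed to 10581 to 11675 FPKM in JIB-04 hearts and 9726 to 12499 FPKM in transgenic vehicle hearts, against 13321 to 15746 FPKM in wild type hearts, and none was at 0. Depth per heart, estimated from the spacing of low values and relative to wild type heart 1, was 1 to 1.23 in wild type hearts. It was 1.23 to 1.46 in transgenic vehicle hearts and 1.52 and 1.37 in JIB-04 hearts, so wild type heart 1 was the shallowest. The mitochondrial share of the summed FPKM was 10.0% to 30.9%. The labels give each heart a number of its own beside the replicate number. Beyond these numbers and the day of collection, nothing says how the replicates of a group were separated, so p-values measure the spread between these hearts.

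Promoters of 4 genes with large differences are shown before the values. Kcnma1 and Kcnq5 had the smallest adjusted p among the members higher in transgenic vehicle hearts, and Kcnj3 and Kcnd2 the smallest among the lower members with a promoter in the table used. Kcnma1 and Kcnq5 reached 1 FPKM in no wild type heart, and Kcnd2 reached it in only 1 transgenic heart. The p of these genes served only to pick them and counts as no support. Each is the 250 bases before the annotated start in RefSeq (GRCm38.p6), in the gene's direction, with every CG dinucleotide in capitals. Kcnma1 lies on the minus strand at chr14:24004206-24004455, and Kcnq5 on the minus strand at chr1:21961943-21962192. Kcnj3 lies on the plus strand at chr2:55435720-55435969, and Kcnd2 on the plus strand at chr6:21215096-21215345.
Kcnma1: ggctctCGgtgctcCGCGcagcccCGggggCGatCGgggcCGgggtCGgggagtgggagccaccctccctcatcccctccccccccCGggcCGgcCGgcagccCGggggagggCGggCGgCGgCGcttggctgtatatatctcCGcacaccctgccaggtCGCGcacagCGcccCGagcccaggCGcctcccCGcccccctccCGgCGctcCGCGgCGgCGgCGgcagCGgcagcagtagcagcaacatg
Kcnq5: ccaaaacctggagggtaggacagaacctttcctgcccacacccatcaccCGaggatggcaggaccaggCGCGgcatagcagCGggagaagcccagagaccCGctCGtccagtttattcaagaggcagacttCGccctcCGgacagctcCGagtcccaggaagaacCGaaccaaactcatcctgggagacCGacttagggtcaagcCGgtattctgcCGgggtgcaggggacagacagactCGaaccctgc
Kcnj3: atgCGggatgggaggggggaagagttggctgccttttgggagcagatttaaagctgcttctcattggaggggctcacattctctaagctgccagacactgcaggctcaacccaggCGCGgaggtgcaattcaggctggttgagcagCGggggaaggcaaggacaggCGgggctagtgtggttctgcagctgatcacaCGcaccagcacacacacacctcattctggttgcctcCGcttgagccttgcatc
Kcnd2: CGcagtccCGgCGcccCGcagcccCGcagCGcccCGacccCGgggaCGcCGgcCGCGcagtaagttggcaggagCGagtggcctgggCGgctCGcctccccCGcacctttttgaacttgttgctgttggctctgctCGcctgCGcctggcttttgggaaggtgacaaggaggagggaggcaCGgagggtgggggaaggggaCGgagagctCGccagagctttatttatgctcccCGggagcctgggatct

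The promoters of Kcnma1, Kcnd2, Kcnq5 and Kcnj3 held 31, 22, 14 and 7 CG dinucleotides, where the median of 32851 promoters of this length was 6 (quartiles 2 and 16). Kcnma1, which was higher in transgenic vehicle hearts, and Kcnd2, which was lower, had the most CG of the 4. RefSeq promoters were found for 20 of the 31 members, and for 7 of the 10 with a called log2 difference of at least 1 between transgenic vehicle and wild type hearts. Kcnv2, Kcne1 and Kcnj14 are named without one. Letters of the NFAT core, GGAAA, searched on both strands, were in 8 of the 20 against 55.6% of all promoters. The GATA motif AGATAA, searched on both strands, was in 0 of the 20 against 9.99% of all promoters. The TATA box letters TATAAA, searched on both strands, were in 0 of the 20 against 12.4% of all promoters. A match or its lack describes these letters in this window only. Kcnq5 has 2 promoters in the table and the one nearest its locus is shown. The start of Kcnma1 lies 654 bases inside the 5′ end of its deposited locus, so the bases shown for it fall within that locus. The start of Kcnd2 lies 157 bases before the 5′ end of its deposited locus. Gene-level values do not say which start was used.

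The subfamilies differed widely in how many of their genes were expressed. Of the inward rectifiers (Kcnj) 7 of 15 reached the filter, of the two-pore channels (Kcnk) 3 of 14, of the Kcnq channels 3 of 5, and of the Kcna channels 2 of 8. Kcnd had 2 of 3, Kcne 2 of 5, Kcnh 2 of 8, Kcnip 2 of 4 and Kcnn 2 of 4. Kcnc, Kcng, Kcnma, Kcnt and Kcnv had 1 each, of 4, 4, 1, 2 and 2 genes. Kcnab, Kcnf, Kcnmb, Kcns and Kcnu, with 3, 1, 4, 3 and 1 genes, had none. Just inside the filter, by their second-highest heart, lay Kcnh6 at 1.15, Kcnip3 at 1.21 and Kcnc1 at 1.34 FPKM, and among those just outside were Kcnmb4 at 0.874 and Kcnip1 at 0.722 FPKM.

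In wild type hearts the order of the median levels per length was led by Kcnip2 (102.9 FPKM), Kcnk3 (88.7 FPKM), Kcng2 (85.7 FPKM), Kcnj11 (53.4 FPKM) and Kcnh2 (44.3 FPKM). Kcnip2, Kcnk3 and Kcng2 overlapped in their wild type ranges, so their order among themselves is not fixed by these hearts. Kcng2 lay above Kcnj11 in every wild type heart, while Kcnj11 and Kcnh2 overlapped. Kcnj5 (24.9 FPKM), Kcnj3 (23.5 FPKM), Kcnj8 (21.0 FPKM) and Kcnq1 (19.0 FPKM) followed, and each overlapped the next. The summed level of the 95 members was 476 and 448 FPKM in JIB-04 hearts and 536, 534 and 535 FPKM in transgenic vehicle hearts, against 539, 551, 558 and 595 FPKM in wild type hearts. Kcnip2, which encodes the KChIP2 partner of Kv4 channels, made up 28.1% to 28.9% of that sum in JIB-04 hearts and 28.7% to 31.0% in transgenic vehicle hearts, against 16.4% to 21.3% in wild type hearts.

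Transgenic vehicle hearts were set against wild type hearts to see what the transgene changed. Of the 31 members, 6 were higher and 16 lower at an adjusted p under 0.05 (limma on log2(FPKM + 1), Benjamini-Hochberg over 13487 genes), and 9 did not pass. Of all tested genes 36.0% passed, 20.3% higher and 15.7% lower, so the share of members that passed (71.0%) was above the background and tilted to lower levels. Of these, 4 higher and 6 lower members had a log2 difference of at least 1, which 3.87% and 2.40% of all tested genes had. The hearts of the groups did not overlap in 6 higher and 15 lower members, as in 23.4% and 17.7% of all tested genes. The median difference was -0.31 over the members against 0.05 over all tested genes. The cardiomyocyte markers had a median of -0.31 too, with 0 higher and 3 lower of 6, and their part in the lower levels of the members was not tested. When the hearts were put on equal FPKM totals, the median of all genes was 0.23 and that of the members -0.17, and 7 members were higher and 11 lower. These counts leave out the members below the filter. Kcnc1, Kcnj14, Kcnma1, Kcnq5 and Kcnt2 reached 1 FPKM in no wild type heart and Kcnv2 in no transgenic heart, so they passed the filter through 1 genotype alone and had to differ. Kcnd2 and Kcne1 reached 1 FPKM in 1 transgenic heart each, too few for the filter, so they passed it through wild type hearts alone. The p-values of all these members between the genotypes count as no support here and below. In bulk hearts, fewer cells of a type and less RNA per cell cannot be told apart.

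**Figure D1:**
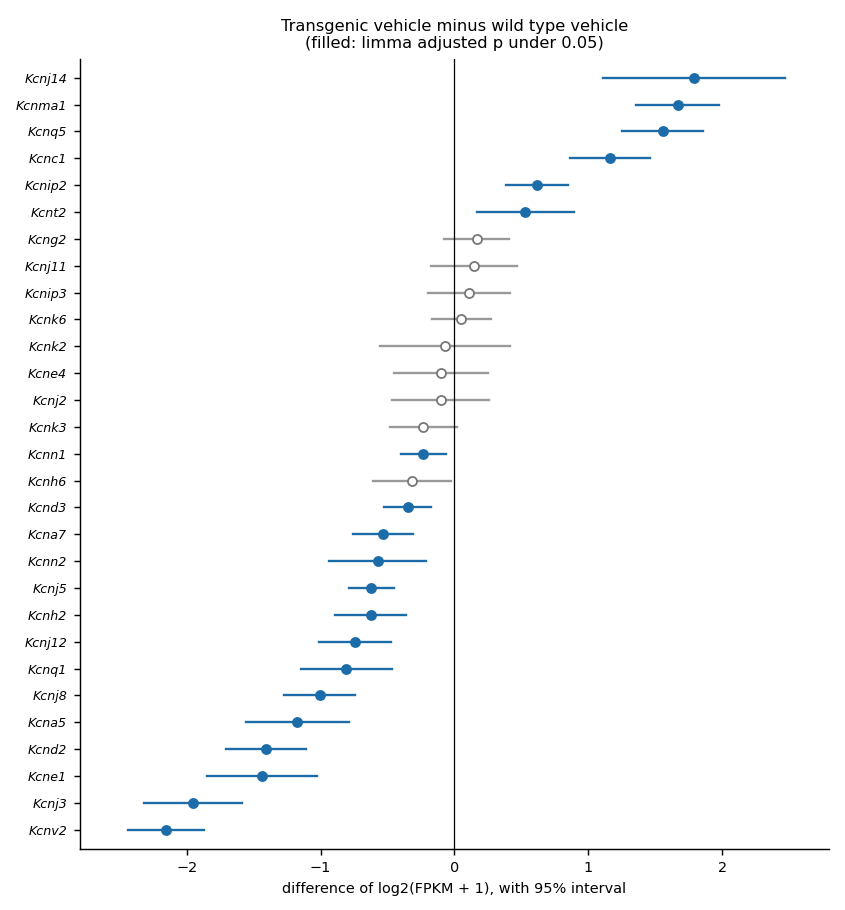
Log2 difference between transgenic vehicle and wild type hearts (log2(FPKM + 1) scale, horizontal axis) for the members reported here, with the 95% interval of the limma fit as a bar. Kcnv2 and Kcnj3 lie farthest to the left, at -2.15 and -1.95, and Kcnj14 and Kcnma1 farthest to the right, at 1.79 and 1.67.

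The transient outward current is carried by Kv4 channels, and here the channel gene and its partner moved in opposite directions. Kcnd2 (Kv4.2; GRCm38 chr6:21215503-21729805) was at 1.59, 0.928 and 0.783 FPKM in transgenic vehicle hearts, against 4.73, 4.21, 4.64 and 4.74 FPKM in wild type hearts. Every transgenic vehicle heart lay below every wild type heart, a log2 difference of -1.41 ± 0.13 (SE; limma adjusted p = 0.00018). Kcnd2 passed the filter through wild type hearts alone, so this p counts as no support. Kcnd3 (Kv4.3), the other Kv4 gene expressed here, was at 3.20, 3.04 and 2.99 FPKM in transgenic vehicle hearts, against 4.05, 4.25, 4.05 and 4.45 FPKM in wild type hearts. It fell by 0.35 on the log2 scale (limma adjusted p = 0.0094), with ranges that did not overlap, but did not pass on equal totals (adjusted p = 0.23) or with day 158 hearts alone (adjusted p = 0.14), and its exons share positions with the antisense gene Kcnd3os, which these unstranded libraries cannot tell apart. Kcnip2 was at 166, 153 and 158 FPKM in transgenic vehicle hearts, against 91.9, 108, 119 and 97.5 FPKM in wild type hearts. It was higher in 3 of 3 transgenic vehicle hearts than in any wild type heart (0.61 ± 0.10, limma adjusted p = 0.0025), but did not pass with day 158 hearts alone (0.53, adjusted p = 0.089). Kcna4 (Kv1.4), which carries the slow transient outward current, was under the filter, at 0.426, 0.622 and 0.534 FPKM in transgenic vehicle hearts against 0.474, 0.334, 0.435 and 0.490 FPKM in wild type hearts.

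The ratio of Kcnd2 to Kcnd3 within a heart was 0.218 to 0.498 in the 5 transgenic hearts, against 0.991 to 1.17 in the 4 wild type hearts. That of Kcnip2 to Kcnd2 was 104 to 214 in transgenic hearts, against 19.4 to 25.7 in wild type hearts. The ratios were chosen after the values were seen and are given as a description, without a test.

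Both Kcna genes that reached the filter were lower. Kcna5 (Kv1.5), which carries a slow repolarizing current in the mouse ventricle, was at 3.87, 3.96 and 3.49 FPKM in transgenic vehicle hearts, against 15.1, 10.6, 7.74 and 8.32 FPKM in wild type hearts. The groups did not overlap (-1.17 ± 0.17, limma adjusted p = 0.0013), although the wild type hearts spread widely and heart 1 was highest. The deposited locus of Kcna5 spans 165640 bases, while the annotated gene spans 2862. The longer span contains the deposited locus of Kcna1, and whether the Kcna5 values include reads from there was not tested. Kcna7 (Kv1.7) fell by 0.53 (limma adjusted p = 0.0041) without overlap, which did not pass on equal totals (adjusted p = 0.056) or with day 158 hearts alone (adjusted p = 0.0997).

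Kcnv2 (Kv8.2; chr19:27322588-27337179) makes no channel alone and modifies Kv2 channels, and is best known from photoreceptors. It was at 0.140, 0.0636 and 0.135 FPKM in transgenic vehicle hearts, against 4.37, 5.16, 3.73 and 3.21 FPKM in wild type hearts. Every transgenic vehicle heart lay far below every wild type heart (-2.15 ± 0.12, limma adjusted p = 1.7e-05). Kcng2 (Kv6.2), another silent subunit that pairs with Kv2 channels, did not pass the test. It was at 104, 97.4 and 93.8 FPKM in transgenic vehicle hearts, against 89.9, 81.5, 78.1 and 103 FPKM in wild type hearts (0.17, limma adjusted p = 0.26), but passed on equal totals (0.39, adjusted p = 0.040) and without wild type heart 4 (0.28, adjusted p = 0.034). Kcnc1 (Kv3.1), a fast-gating channel known from rapidly firing neurons, moved the other way. It was at 1.31, 1.34 and 1.90 FPKM in transgenic vehicle hearts, against 0.0607, 0.127, 0.194 and 0.0688 FPKM in wild type hearts, a rise of 1.16 ± 0.13 (limma adjusted p = 0.00041).

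Genes of the rapid and slow delayed rectifiers were lower too. Kcnh2 (ERG, the rapid component) was at 33.1, 25.4 and 26.3 FPKM in transgenic vehicle hearts, against 52.1, 39.6, 41.3 and 47.3 FPKM in wild type hearts. Kcnq1, the channel of the slow component, was at 7.66, 12.7 and 13.5 FPKM in transgenic vehicle hearts, against 19.0, 19.0, 17.0 and 22.2 FPKM in wild type hearts. Kcne1, the regulatory subunit that slows Kcnq1, was at 0.319, 1.87 and 0.932 FPKM in transgenic vehicle hearts, against 3.46, 2.82, 4.79 and 5.10 FPKM in wild type hearts. None of these 3 had overlapping ranges, and their differences were -0.63, -0.81 and -1.44 (limma adjusted p = 0.0042, 0.0042 and 0.00064). Kcne1 passed the filter through wild type hearts alone, so its p counts as no support. Kcnq1 shares exon positions with the antisense gene Kcnq1ot1 and lost its call when only day 158 hearts were used (limma adjusted p = 0.12). Within a heart the ratio of Kcne1 to Kcnq1 was 0.0416 to 0.147 in transgenic hearts and 0.148 to 0.281 in wild type hearts. Kcnh6 (ERG2) and Kcne4, a regulator of Kcnq1, did not pass (-0.31 and -0.10; limma adjusted p = 0.088 and 0.63).

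**Figure D2:**
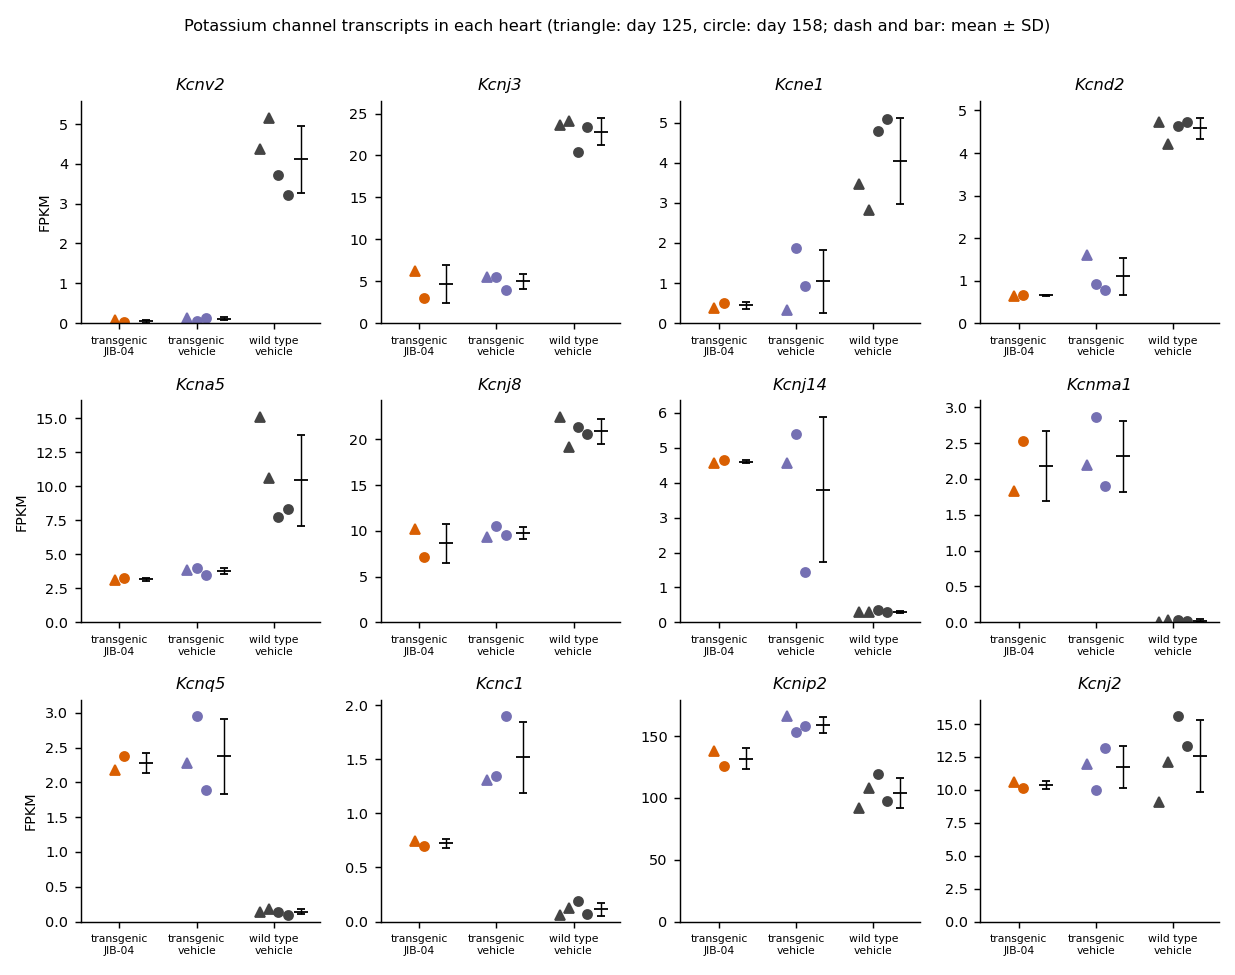
FPKM of 12 members in each heart (vertical axis, linear, from 0), with JIB-04, transgenic vehicle and wild type hearts from left to right, the mean as a dash and SD as a bar. Kcnd2, Kcnj3 and Kcnv2 lie lower, and Kcnip2, Kcnma1 and Kcnq5 higher, in transgenic vehicle than in wild type hearts.

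The strong inward rectifier current, which holds the resting potential, is carried by Kir2 channels, and its genes did not move as one. Kcnj2 (Kir2.1) was at 12.0, 10.0 and 13.2 FPKM in transgenic vehicle hearts, against 9.06, 12.1, 15.6 and 13.4 FPKM in wild type hearts. Its difference was -0.10 (95% interval -0.47 to 0.26, limma adjusted p = 0.64), with overlapping ranges and a sign that changed under other settings. Kcnj12 (Kir2.2) was at 8.03, 6.09 and 8.54 FPKM in transgenic vehicle hearts, against 12.4, 13.0, 12.9 and 14.7 FPKM in wild type hearts. It was lower in 3 of 3 transgenic vehicle hearts than in any wild type heart (-0.75, limma adjusted p = 0.0020), which did not pass with day 158 hearts alone (adjusted p = 0.075). Kcnj14 (Kir2.4) was at 4.56, 5.41 and 1.45 FPKM in transgenic vehicle hearts, against 0.300, 0.282, 0.339 and 0.287 FPKM in wild type hearts. Heart 3 was the lowest of the transgenic hearts in Kcnj14 as in Ppp3ca, and the rise was 1.79 ± 0.30 with it (limma adjusted p = 0.0026) and 2.2 without it. With day 158 hearts alone it did not pass (1.59, adjusted p = 0.12). Kcnj4 (Kir2.3) was under the filter, at 0.110, 0.0703 and 0.161 FPKM in transgenic vehicle hearts against 0.172, 0.179, 0.294 and 0.0845 FPKM in wild type hearts.

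Kir3 channels answer to acetylcholine through G proteins and are known mainly from atrial and nodal cells. Kcnj3 (Kir3.1; chr2:55435970-55598145) was at 5.45, 5.54 and 3.94 FPKM in transgenic vehicle hearts, against 23.6, 24.1, 20.4 and 23.4 FPKM in wild type hearts. Kcnj5 (Kir3.4) was at 14.6, 16.2 and 16.5 FPKM in transgenic vehicle hearts, against 22.7, 24.6, 25.2 and 25.9 FPKM in wild type hearts. Both were lower in every transgenic vehicle heart than in any wild type heart, by log2 differences of -1.95 ± 0.16 for Kcnj3 (limma adjusted p = 9.6e-05) and -0.62 for Kcnj5 (limma adjusted p = 0.00049). The ratio of Kcnj3 to Kcnj5 was 0.224 to 0.437 in transgenic hearts, against 0.811 to 1.04 in wild type hearts. Of the 4 atrial markers, 1 (Nppa, a natriuretic peptide that hypertrophied ventricles also make) was higher in transgenic vehicle hearts and 0 were lower. Nppa was at 1436 to 2360 FPKM in transgenic vehicle hearts against 279 to 324 FPKM in wild type hearts, and set the summed level of the list, which was 1454 to 2368 FPKM in transgenic vehicle hearts against 280.1 to 358 FPKM in wild type hearts. The other 3 overlapped between the groups, Myl7 at 0.947 to 4.84 FPKM in transgenic vehicle hearts against 0 to 13.5 FPKM in wild type hearts, Myl4 at 6.41 to 15.5 FPKM in transgenic vehicle hearts against 1.42 to 12.0 FPKM in wild type hearts, and Sln at 0 to 1.44 FPKM in transgenic vehicle hearts against 0 to 7.98 FPKM in wild type hearts. Wild type heart 4 was the highest wild type heart in each of the 4 atrial markers, and Kcnj3 was at 23.4 FPKM there. The part of atrial tissue in the Kcnj3 values was not tested. Kcnj3 shares exon positions with Gm26794.

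ATP-sensitive channels pair a Kir6 pore with a sulfonylurea receptor. Kcnj8 (Kir6.1, the vascular pore; chr6:142564939-142571356) was at 9.35, 10.5 and 9.53 FPKM in transgenic vehicle hearts, against 22.5, 19.2, 21.4 and 20.6 FPKM in wild type hearts. Kcnj11 (Kir6.2, the cardiomyocyte pore) was at 47.5, 58.6 and 80.9 FPKM in transgenic vehicle hearts, against 43.4, 53.9, 53.0 and 62.9 FPKM in wild type hearts. Kcnj8 fell by 1.01 on the log2 scale (limma adjusted p = 0.00045) without overlap, while Kcnj11 overlapped and did not pass (0.15, limma adjusted p = 0.45). Abcc9, the receptor SUR2, was lower by a log2 difference of -0.81 (limma adjusted p = 0.00037), while Abcc8, the receptor SUR1, had a difference of 0.32 (limma adjusted p = 0.052). Pericytes also express Kcnj8 and Abcc9. Of 5 pericyte markers 1 was higher and 4 were lower, and their summed level was 106 to 142 FPKM in transgenic vehicle hearts against 171 to 202 FPKM in wild type hearts. Endothelial markers, with 0 higher and 4 lower of 5, summed to 91.0 to 122 FPKM in transgenic vehicle hearts against 166 to 178 FPKM in wild type hearts. Their part in the fall of Kcnj8 was not tested.

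**Figure D3:**
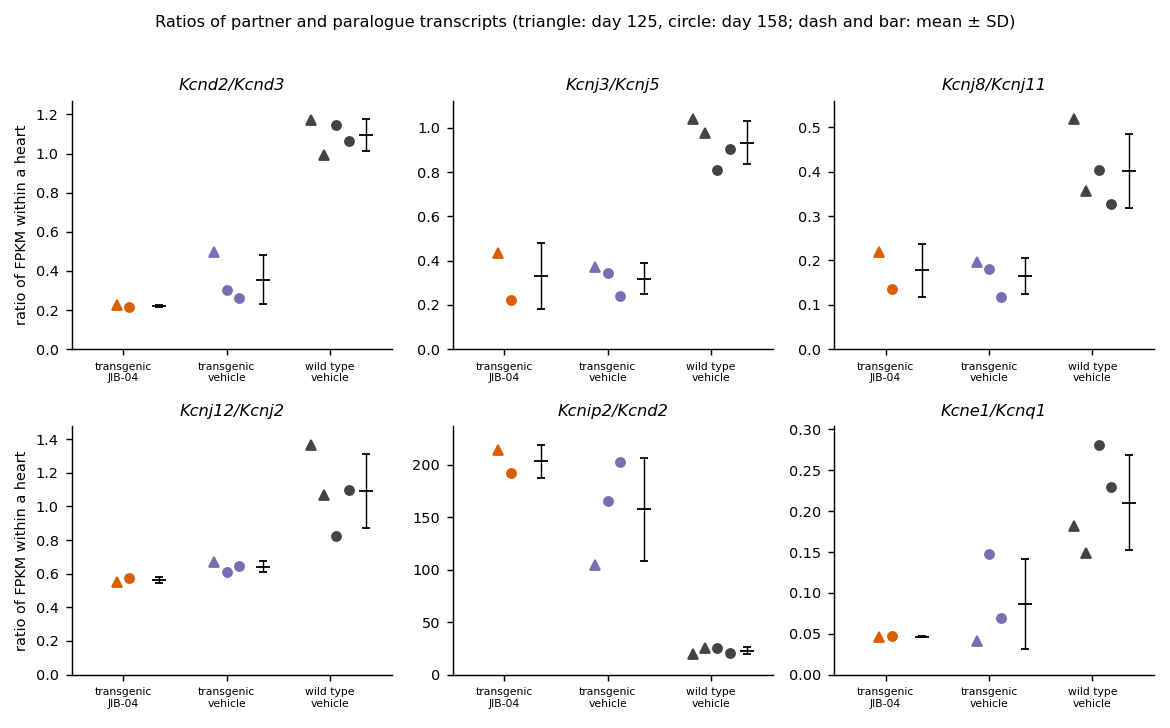
Ratios of FPKM between members of a channel complex or family within each heart (vertical axis), for JIB-04, transgenic vehicle and wild type hearts. The ratio of Kcnd2 to Kcnd3 lies at 0.218 to 0.498 in transgenic hearts and at 0.991 to 1.17 in wild type hearts.

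The calcium-activated channels included Kcnma1, which reached 1 FPKM in no wild type heart, so its p counts as no support. Kcnma1 (the pore of the BK channel, opened by voltage and calcium; chr14:23289431-24004859) was at 2.19, 2.87 and 1.90 FPKM in transgenic vehicle hearts, against 0, 0.0389, 0.0389 and 0.0224 FPKM in wild type hearts. It was listed at 0 in wild type heart 1 and was higher in 3 of 3 transgenic vehicle hearts than in any wild type heart (1.67 ± 0.13, limma adjusted p = 9.1e-05). Its exons share positions with 4930519K11Rik. Lrrc52, an auxiliary γ subunit that shifts BK channels towards opening, was at 20.4, 16.1 and 24.8 FPKM in transgenic vehicle hearts, against 3.03, 1.94, 1.74 and 1.92 FPKM in wild type hearts. It was not a member of the set but headed the partner genes, with a log2 difference of 2.79 (limma adjusted p = 2.0e-05). Kcnmb4, the BK β4 subunit known from brain, stayed under the filter and was singled out after its values were seen. It was at 0.874, 0.711 and 0.907 FPKM in transgenic vehicle hearts, against 0.0475, 0.123, 0 and 0.0483 FPKM in wild type hearts. Kcnmb1, the β1 subunit of smooth muscle, was at 0.186, 0.224 and 0.175 FPKM in transgenic vehicle hearts, against 0.329, 0.352, 0.223 and 0.359 FPKM in wild type hearts. The smooth muscle markers, of which 2 were higher and 1 lower of 5, summed to 161 to 596 FPKM in transgenic vehicle hearts against 145 to 185 FPKM in wild type hearts. The wider range came from Acta2 alone, an actin gene also active in stressed cardiomyocytes and myofibroblasts, at 534, 486 and 104 FPKM in transgenic vehicle hearts 1 to 3 against 22.2 to 52.7 FPKM in wild type hearts. Without Acta2, left out after its values were seen, the markers summed to 57.6 to 73.4 FPKM in transgenic vehicle hearts against 117 to 145 FPKM in wild type hearts. That lower sum came from Smtn alone, at 38.8 to 52.8 FPKM in transgenic vehicle hearts against 98.1 to 129.9 FPKM in wild type hearts. Myh11 and Tagln were not called (-0.12 and -0.00037), and Cnn1 was higher (0.65, limma adjusted p = 0.036). The part of smooth muscle in the BK values was not tested.

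**Figure D4:**
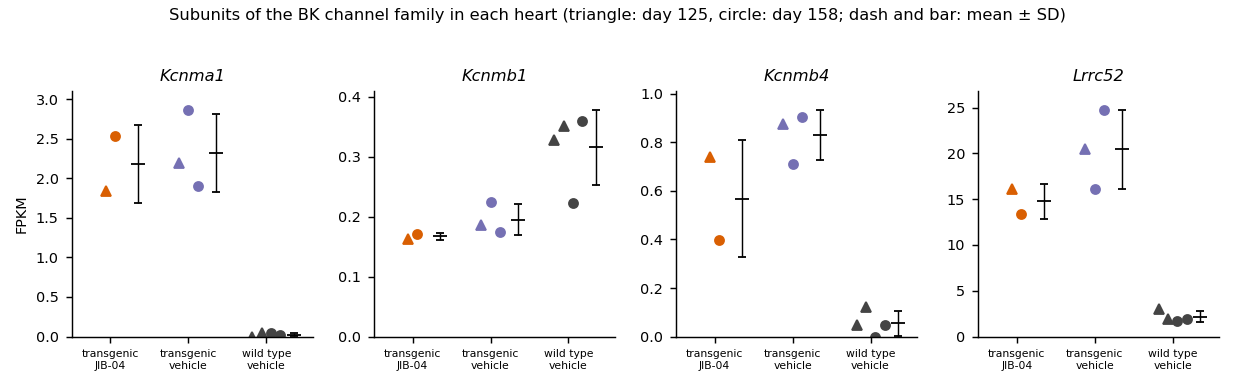
FPKM of Kcnma1, Kcnmb1, Kcnmb4 and Lrrc52 in each heart (vertical axis, linear, from 0), for JIB-04, transgenic vehicle and wild type hearts. Kcnma1 is at 1.83 and 2.53 FPKM in JIB-04 hearts and 1.90 to 2.87 FPKM in transgenic vehicle hearts, against 0 to 0.0389 FPKM in wild type hearts.

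The small-conductance channels, which couple calcium to late repolarization, were lower with less certainty. Kcnn2 (SK2) was at 5.30, 4.41 and 2.96 FPKM in transgenic vehicle hearts, against 7.83, 8.13, 4.83 and 7.39 FPKM in wild type hearts. Its ranges overlapped, and the difference of -0.57 (limma adjusted p = 0.024) lost its call under 7 of 22 alternatives. These included leaving out transgenic vehicle heart 1 or 3 or wild type heart 2 or 4 (adjusted p 0.050 to 0.072). Kcnn1 (SK1) had a difference of -0.23 (limma adjusted p = 0.038), which 6 of 21 alternatives kept and which leaving out any single heart ended (adjusted p 0.055 to 0.15). Kcnt2 (Slick, a sodium-activated channel) was higher by 0.53 (limma adjusted p = 0.032), a call that 8 of 21 alternatives kept. Leaving out any heart of the compared groups but transgenic vehicle heart 2 ended it (adjusted p 0.051 to 0.097). Kcnt2 reached 1 FPKM in no wild type heart, so its p and its kept calls count as no support.

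Among the other Kcnq genes, Kcnq5, which contributes to the M-current of neurons, rose. Kcnq5 (chr1:21398403-21961942) was at 2.28, 2.95 and 1.89 FPKM in transgenic vehicle hearts, against 0.134, 0.187, 0.134 and 0.101 FPKM in wild type hearts. The groups were far apart (1.55 ± 0.13, limma adjusted p = 0.00011). Since Kcnc1, Kcnq5 and Kcnmb4 are best known from neurons, markers of neurons and Schwann cells were read beside them. Their summed level was 3.29 to 3.98 FPKM in transgenic vehicle hearts against 5.49 to 6.22 FPKM in wild type hearts, with 0 of 2 tested markers called (2 listed members fell under the filter). Fibroblast markers, 3 higher (Pdgfra, Dcn and Tcf21) and 0 lower of 5, summed to 499 to 614 FPKM in transgenic vehicle hearts against 228 to 299 FPKM in wild type hearts. Most of that sum was Dcn, at 319 to 567 FPKM in transgenic vehicle hearts against 172.5 to 224 FPKM in wild type hearts. Col1a1 and Col3a1 were not called, and in transgenic vehicle heart 3 (9.67 and 14.1 FPKM) both lay below every wild type heart. The part of fibroblasts in the rises of Kcnc1, Kcnq5 and Kcnmb4 was not tested.

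The two-pore channels, which carry background current, were not called in any of their 3 expressed genes. Kcnk3 (TASK-1), the most abundant, was at 77.4, 82.3 and 64.4 FPKM in transgenic vehicle hearts, against 79.2, 87.6, 89.8 and 94.0 FPKM in wild type hearts (-0.23, limma adjusted p = 0.13). Kcnk2 (TREK-1) and Kcnk6 (TWIK-2) had differences of -0.07 and 0.05 (limma adjusted p = 0.82 and 0.72). Kcnip3 (KChIP3) had one of 0.11 (limma adjusted p = 0.56). Among all 31 members, the calls of Kcna5, Kcnc1, Kcnd2, Kcne1, Kcnh2, Kcnj3, Kcnj5, Kcnj8, Kcnma1, Kcnq5 and Kcnv2 were kept in every alternative tried, 11 of 22. Of these, Kcnc1, Kcnd2, Kcne1, Kcnma1, Kcnq5 and Kcnv2 passed the filter through a single genotype, so keeping their calls counts as no support. In all, 12 of the 31 share exon positions with another gene, among them Kcnd3, Kcng2, Kcnj3, Kcnk2, Kcnk3, Kcnma1, Kcnn1, Kcnn2, Kcnq1, Kcnq5 and Kcnt2.

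Below the filter, in a fit with no filter that called 17.2% of 25720 genes, 2 of 60 members were higher and 4 lower. Kcnip1 (KChIP1), singled out after its values were seen, was at 0.000693, 0.0295 and 0.00696 FPKM in transgenic vehicle hearts, against 0.843, 0.493, 0.722 and 0.699 FPKM in wild type hearts (-0.74, limma adjusted p = 0.0016). Kcnip1 thus fell as Kcnip2, of the same family, rose. The other 5 were Kcnmb4 (0.82) and Kcnj9 (0.04), both higher, and Kcna1 (-0.28), Kcna6 (-0.32) and Kcnc2 (-0.09).

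Partner genes of potassium channels and of potassium transport were read from a list of 27, of which 23 were tested. In transgenic vehicle hearts 8 were higher and 4 lower than in wild type hearts, where 20.3% and 15.7% of all tested genes were, so the share of lower partners was near the background. Beside Lrrc52 and Abcc9, Tmem38b, a potassium-permeable channel of the sarcoplasmic reticulum, was higher (1.01). It was at 20.9, 14.7 and 29.6 FPKM in transgenic vehicle hearts, against 10.1, 10.6, 8.97 and 10.3 FPKM in wild type hearts. Atp1b1, the β1 subunit gene of the sodium-potassium pump, was higher by 0.73. It was at 226, 224 and 166 FPKM in transgenic vehicle hearts, against 115, 118, 114 and 142 FPKM in wild type hearts. Rgs4, which damps G protein signals to Kir3 channels, was lower (-0.64), at 3.65, 4.32 and 3.51 FPKM in transgenic vehicle hearts, against 6.10, 5.45, 8.35 and 5.97 FPKM in wild type hearts. Chrm2, the muscarinic receptor upstream of Kir3 channels, was higher by 0.44. Akap9 (0.49), Actn2 (0.46), Irx5 (0.40) and Cav3 (0.36) were also higher and Adora1 (-0.45) lower.

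JIB-04 transgenic hearts were set against transgenic vehicle hearts to see what the compound changed. In limma 0 of 31 members passed, and 1 (Kcnc1) had an unadjusted p under 0.05, where 444 of 13487 genes did. Over all tested genes 0.00741% passed. No other tool was run. The difference was below 0 in 24 members and above 0 in 7, with a median of -0.12 against -0.01 over all tested genes. The hearts of the groups did not overlap in 7 members, all lower in JIB-04 hearts (Kcna5, Kcnc1, Kcnd2, Kcng2, Kcnip2, Kcnj12 and Kcnj5), and in 0 that were higher, where 6.88% and 5.55% of all tested genes had such ranges.

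Kcnc1 had the smallest p among the members, but it reached 1 FPKM in the transgenic vehicle hearts only and so passed the filter through the group where it was high. Its p therefore counts as no support, and its values are given as a description. It was at 0.747 and 0.695 FPKM in JIB-04 hearts, against 1.31, 1.34 and 1.90 FPKM in transgenic vehicle hearts (-0.53, 95% interval -0.89 to -0.17, unadjusted p = 0.0092, limma adjusted p = 0.987). Both JIB-04 hearts lay below all transgenic vehicle hearts and above the wild type range of 0.0607 to 0.194 FPKM. Kcnip2 was at 138 and 126 FPKM in JIB-04 hearts, against 166, 153 and 158 FPKM in transgenic vehicle hearts (-0.27, 95% interval -0.55 to 0.0019). It too lay between the transgenic vehicle range and the wild type range of 91.9 to 119 FPKM. Kcnd2 was at 0.644 and 0.655 FPKM in JIB-04 hearts, against 1.59, 0.928 and 0.783 FPKM in transgenic vehicle hearts (-0.35, 95% interval -0.71 to 0.010), and so lay farther from wild type. Kcnj12 was at 5.84 and 5.84 FPKM in JIB-04 hearts, against 8.03, 6.09 and 8.54 FPKM in transgenic vehicle hearts (-0.31, 95% interval -0.63 to 0.012), likewise farther from wild type. Kcng2 was at 87.3 and 80.1 FPKM in JIB-04 hearts, against 104, 97.4 and 93.8 FPKM in transgenic vehicle hearts (-0.23, 95% interval -0.52 to 0.057). For these 5 the limma adjusted p was 0.987. The intervals leave room for differences of this size, so a p above the threshold does not show that the compound left these genes as they were.

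**Figure D5:**
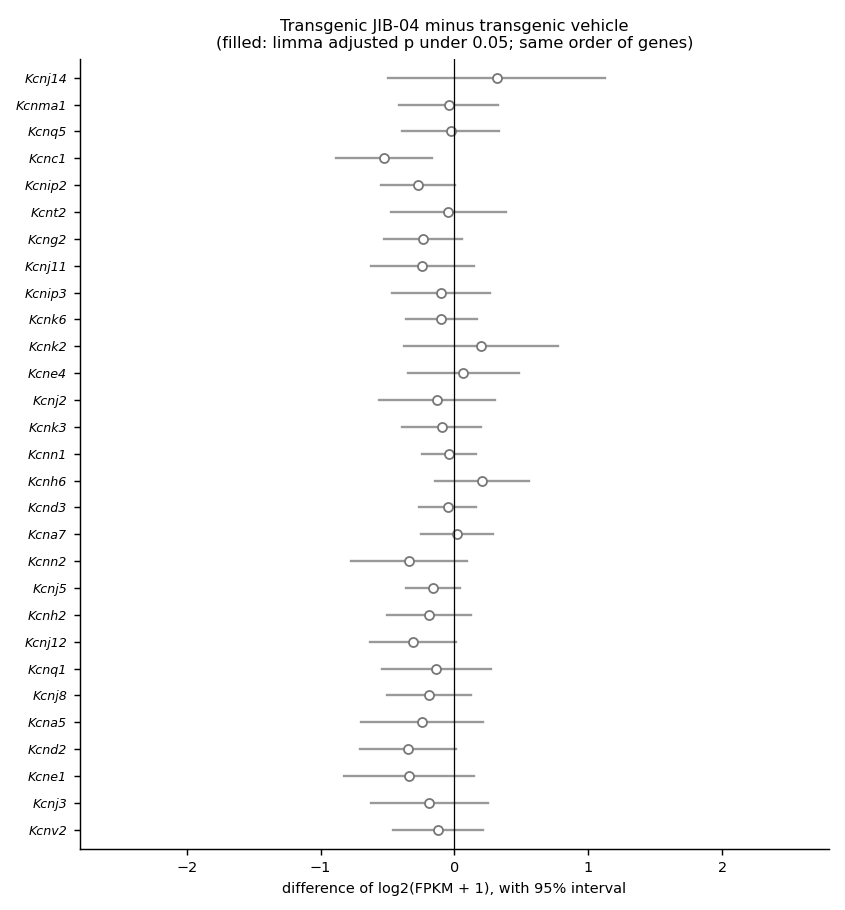
Log2 difference between JIB-04 and transgenic vehicle hearts (log2(FPKM + 1) scale, horizontal axis) for the members reported here, with the 95% interval of the limma fit as a bar. The differences run down to -0.53 (Kcnc1), 24 lie below 0, and 0 pass after adjustment.

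JIB-04 hearts against wild type hearts had 4 members higher and 15 lower (61.3% of 31), where 17.4% and 14.8% of all tested genes were, 32.3% in all. At a log2 difference of at least 1 there were 3 higher and 7 lower members, where 4.03% and 2.87% of all tested genes were. The higher Kcnc1, Kcnj14, Kcnma1 and Kcnq5 reached 1 FPKM in no wild type heart, and the lower Kcnv2 in no transgenic heart. The lower Kcnd2 and Kcne1 reached 1 FPKM in 1 transgenic heart each. All of these members passed the filter through a single genotype, so their calls count as no support. The hearts did not overlap in 6 higher and 16 lower members, as in 28.4% and 21.7% of all tested genes. This comparison shares the wild type hearts with that of the vehicle group, so the values are given side by side and not counted as agreement. Kcnj14 was higher by 2.11 in JIB-04 hearts and by 1.79 in transgenic vehicle hearts, and Kcnma1 by 1.63 in JIB-04 hearts and by 1.67 in transgenic vehicle hearts. Kcnq5 was higher by 1.53 in JIB-04 hearts and by 1.55 in transgenic vehicle hearts. Kcnc1 was higher by 0.63 in JIB-04 hearts and by 1.16 in transgenic vehicle hearts. Among the lower members, Kcnv2 had a difference of -2.28 in JIB-04 hearts and -2.15 in transgenic vehicle hearts, and Kcnj3 one of -2.14 in JIB-04 hearts and -1.95 in transgenic vehicle hearts. Kcne1, Kcnd2, Kcna5, Kcnj8 and Kcnj12 had differences of -1.78, -1.76, -1.42, -1.20 and -1.05 in JIB-04 hearts. Other lower members were Kcnq1, Kcnn2, Kcnh2, Kcnj5, Kcna7, Kcnd3 and Kcnn1. Of the 19 calls 8 were kept in every alternative tried, those of Kcna5, Kcnd2, Kcne1, Kcnj3, Kcnj5, Kcnj8, Kcnma1 and Kcnv2. With day 158 hearts alone, 1 JIB-04 heart (assumed to vary like the other groups) against 2 wild type hearts, the other calls ended, among them those of Kcnq5 (limma adjusted p = 0.053), Kcnh2 (0.055), Kcnj12 (0.085), Kcnq1 (0.11) and Kcnj14 (0.13). Leaving out either JIB-04 heart ended the calls of Kcna7, Kcnc1, Kcnd3 and Kcnn1 (adjusted p 0.057 to 0.23), leaving out any wild type heart that of Kcnn1 (adjusted p 0.065 to 0.080), leaving out transgenic vehicle heart 1 that of Kcnn1 (adjusted p = 0.052), and leaving out JIB-04 heart 1 that of Kcnn2 (adjusted p = 0.081). Kcnt2 too reached 1 FPKM in no wild type heart, so its p-values count as no support in any setting. Kcnip2 (0.34, limma adjusted p = 0.051) and Kcnt2 (0.48, adjusted p = 0.070) did not pass in JIB-04 hearts. Kcnip2 and Kcnt2 did so without transgenic vehicle heart 3 (adjusted p = 0.048 and 0.026), Kcnip2 also without wild type heart 3 (adjusted p = 0.020) and Kcnt2 also without transgenic vehicle heart 2 (adjusted p = 0.043). With all hearts Kcnip2 passed on equal totals (limma adjusted p = 0.044), quantile scaling (0.027), totals without mitochondrial and the highest genes (0.027) and a filter of 5 FPKM (0.048). Kcnt2 passed on equal totals (limma adjusted p = 0.034) and with the compared groups only (0.033). Neither passed in the other alternatives tried.

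Levels in JIB-04 hearts are given for the members with the largest transgene differences. Kcnv2 was at 0.0710 and 0.0217 FPKM, Kcnj3 at 6.26 and 3.01 FPKM, and Kcne1 at 0.379 and 0.508 FPKM in JIB-04 hearts. Kcna5 was at 3.10 and 3.23 FPKM and Kcnj8 at 10.2 and 7.14 FPKM in JIB-04 hearts. Kcnj14 was at 4.58 and 4.64 FPKM, Kcnma1 at 1.83 and 2.53 FPKM, and Kcnq5 at 2.18 and 2.38 FPKM in JIB-04 hearts. Kcna5 lay below the transgenic vehicle range, the other members just named overlapped it, and none of them overlapped the wild type range. Lrrc52 was at 16.1 and 13.4 FPKM in JIB-04 hearts. Among the partners 0 of 23 passed between JIB-04 and transgenic vehicle hearts.

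Age at collection was read from the same fit. Between day 158 and day 125 hearts 0 of 31 members passed in limma, 5 had an unadjusted p under 0.05, and 0.378% of all tested genes passed. Kcne1 had the smallest p (0.53 higher at day 158, limma adjusted p = 0.13). In transgenic vehicle hearts it was at 1.87 and 0.932 FPKM at day 158 against 0.319 FPKM at day 125, and in wild type hearts at 4.79 and 5.10 FPKM at day 158 against 3.46 and 2.82 FPKM at day 125. The JIB-04 hearts had 0.508 FPKM at day 158 and 0.379 FPKM at day 125, so the later hearts were higher in each group. Kcnj11 had a difference of 0.32 (limma adjusted p = 0.22). For the difference of the transgene effect between the days 0 of 31 members passed in limma (0.00741% of all tested genes did), and 2 had an unadjusted p under 0.05. These were Kcnq1 (0.67) and Kcnd2 (-0.54), followed by Kcna5 (0.55), each with a limma adjusted p of 0.999. Day 125 has 1 transgenic vehicle heart, so this difference rests on it.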

How the data were processed

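The authors deposited 1 file per heart with log2 values of FPKM for 43154 genes. The submitters' processing notes name Cufflinks 2.2.1, GATK 4.1.2, Picard and STAR 2.7.1a and the build GRCm38, without their roles. Trizol extraction and an mRNA kit that loses strand are given per the labels. The constant added before the deposited log2 was taken as 1. Read totals are not given in the sources used here. Loci count from 0 (start plus 1 matched the GENCODE M21 start in 82.9% of 39313 genes) and are printed counting from 1.

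The limma package (3.58.1, R 4.3.3) was run on log2(FPKM + 1) of the 13487 genes that reached 1 FPKM in 2 or more hearts, with terms for group and day over all 9 hearts and a trended variance. Tests were two-sided, with Benjamini-Hochberg adjustment across these genes and a threshold of 0.05. The fit was tested on simulated data. Alternatives were constants of 0.1 and 0.5, no filter or one of 5 FPKM, 4 scalings between hearts, no day term, the replicate number as a block, an untrended variance, the compared groups only, day 158 alone, and the loss of any one heart. Members, partners, marker lists and the naming rule (members with a called log2 difference of at least 1, members of the cardiac currents, and those with the smallest p for JIB-04 and for the days) were chosen with earlier results of these data known. Same-numbered hearts of the groups correlated at -0.19 to 0.43 in their deviations, over 0.1 in 3 of 7 pairs, and were not taken as pairs. The marker lists not mentioned beside a result were conduction (2 higher of 2 tested, Isl1 at 0 in all groups), macrophage (0 called of 4 tested) and epicardial (1 higher of 2 tested). Some genes of the set and of the partner list are not reported here, and the counts include them.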

Additional observations from a re-analysis of the deposited data

Results flagged for a closer look

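Kcnh6 (ERG2) was at 1.4351 FPKM in wild type heart 3, against 1.1038 to 1.114 FPKM in the other 3 wild type hearts. The gap between that heart and the nearest other was 0.967 of the group's whole range, which is past Dixon's 95% limit for 4 samples. Chance alone passes that limit in about 1 of 20 groups.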

How the results depend on the processing

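Between transgenic vehicle and wild type hearts the count of 6 higher and 16 lower members was 1 and 9 with a filter of 5 FPKM (14 members tested) and 3 and 8 with day 158 hearts only. Leaving out 1 heart gave 5 to 6 higher and 13 to 15 lower. With the replicate number as a block it was 5 higher and 11 lower. Between JIB-04 and wild type hearts, 4 higher and 15 lower became 1 and 8 with a filter of 5 FPKM, 1 and 7 with day 158 hearts only, and 2 and 10 with the replicate block. Leaving out 1 heart gave 3 to 6 higher and 10 to 17 lower. Between JIB-04 and transgenic vehicle hearts 0 members passed in every alternative. For the days, leaving out 1 heart gave 0 to 1 higher and 0 lower, and with no filter the difference of the transgene effect between the days had 1 lower of 91 members. Among the named members the sign changed only for values that were not called: Kcne4 (0.014 with equal totals, 0.056 with the block, -0.26 to 0.037 leaving out 1 heart), Kcnj2 (0.10 with equal totals, 0.064 with the block, -0.23 to 0.024 leaving out 1 heart), Kcnk2 (0.053 with equal totals, -0.28 to 0.15 leaving out 1 heart), Kcnj11 (-0.00175 to 0.26 leaving out 1 heart) and its day difference (-0.24 with the block). The causes were not tested. Depth is known only relative to another heart, which limits what values under 1 FPKM can show.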
